A study of Mus musculus with 15 samples.

Results

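The genes described here are 30 genes of cholesterol and fatty acid synthesis, chosen by name and found by matching the Ensembl gene identifiers of the count table to mouse symbols. All 30 were present among the 45232 gene identifiers counted, and all 30 passed the filter on low counts, which left 17834 genes for testing. RNA-seq was carried out on LSK cells, a bone marrow population enriched for stem and multipotent progenitor cells that lacks lineage markers and carries Kit and Sca-1 (the product of Ly6a). The study asked how the AG221 and ruxolitinib inhibitors, alone and together, change gene expression in a myeloproliferative neoplasm driven by IDH2-R140Q and JAK2-V617F. Mutant marrow carried conditional Idh2 R140Q and Jak2 V617F alleles on a C57BL/6 background, with both alleles switched on by Mx1-Cre after polyI:polyC. Mx1-Cre acts in all hematopoietic cells and is not limited to the LSK compartment. The marrow was transplanted in competition with WT CD45.1 marrow into lethally irradiated CD45.1 hosts, and CD45.2+ LSK cells were sorted, so host and competitor cells were gated out. Transplanted mice received vehicle, AG221 (an inhibitor of mutant IDH2), ruxolitinib (Rux, a JAK1 and JAK2 inhibitor) or both drugs (combo) by gavage for 21 to 28 days. Ruxolitinib was given at 60 mg/kg and AG221 at 40 mg/kg or a higher dose that the methods also list. WT LSK cells formed the fifth group, and the sources used here do not say whether they came from transplanted mice. Each of the 5 groups held 3 libraries, named by letter and number: WT B28, B30 and B31, vehicle A1, A3 and A4, AG221 A8, A9 and A10, Rux A14, A16 and A17, and combo B24, B25 and B26. Donors were mice of both sexes aged 6 months or older, and no source states whether a library is 1 mouse or a pool. The p-values therefore measure the spread between these libraries.

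Cholesterol and fatty acids are both built from cytosolic acetyl-CoA. The mevalonate arm condenses acetyl-CoA into isoprenoid units and then farnesyl diphosphate, and the sterol arm joins these into squalene, closes the rings and trims the product to cholesterol. In the fatty acid arm, acetyl-CoA is carboxylated to malonyl-CoA, polymerized by fatty acid synthase, and then desaturated and elongated. The SREBP transcription factors, encoded by Srebf1 and Srebf2, drive both arms when membrane sterol is low, and INSIG proteins hold them in the endoplasmic reticulum when sterol is plentiful. Dividing blood progenitors draw on both arms for new membrane.

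Total counts were 18836625 to 32174287 per library (median 25545779). Kit was at 739 to 1550 CPM (counts scaled to the library size) in every library, whereas Ly6a was at only 13.0 to 166 CPM. AG221 A8 and A10 stood apart from the other libraries before any comparison was made. Genes in the top 25% of transcript GC content were lower than those in the bottom 25% by a median log2 difference of -0.66 in A8 and -0.41 in A10, whereas this difference was -0.19 to 0.23 in the other 13 libraries. Idh2, a targeted gene that is expressed from a knock-in allele, was at 55.0 CPM in A8 and 65.8 CPM in A10, at 335 CPM in A9 and at 124 CPM in Rux A16, and at 212 to 567 CPM elsewhere. Calls that rest on AG221 are therefore also given without A8 and A10. WT libraries expressed Xist (455 to 511 CPM) with Ddx3y at no more than 0.1005 CPM, and the mutant libraries expressed Ddx3y (124 to 206 CPM), so donor sex and genotype cannot be told apart. The letter in the library names (A for vehicle, AG221 and Rux, B for combo and WT) has no stated meaning. Comparisons of WT or combo with vehicle, AG221 or Rux cross the letters, so no within-letter value can be had for them. In these comparisons the letter cannot be told apart from the group. Combo vs. WT lies within the letter B. The summed level of 20 immediate early genes was 859 to 1493 CPM in WT and combo libraries and 4780 to 16839 CPM in the vehicle, AG221 and Rux libraries. A set of 10 neutrophil genes summed to 3475 to 3831 CPM in WT, 7839 to 12849 in vehicle, 17417 to 20502 in AG221, 12196 to 19349 in Rux and 4302 to 7733 in combo. B lineage and plasma genes summed to 654 to 1353 CPM in WT and 90.8 to 257 in mutant libraries, and LSK genes to 3881 to 4173 and 2176 to 3350. The summed erythroid, megakaryocyte, T and NK, monocyte and dendritic, and mast and basophil sets were each higher in every mutant library than in every WT library. Not every gene followed its sum. Nkg7 made up most of the T and NK sum (mean 174 CPM in WT and 425 in vehicle). Cd4, Cd8a, Cd3g and Klrb1c had lower means in every mutant group than in WT. Cd3e, Cd3d and Ncr1 had lower means in vehicle and combo, and higher means in AG221. Markers of cells that make much lipid were nearly absent, at no more than 13.0 CPM summed over 6 adipocyte genes and no more than 4.65 CPM over 4 hepatocyte genes. The part of these differences in the results that follow was not tested. In bulk RNA, fewer cells of a type and less RNA per cell cannot be told apart.

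All 30 genes were expressed in LSK cells, from 0.540 to 75.1 CPM per kb of exon in WT cells. In WT cells the highest levels per length belonged to Scd2, a stearoyl-CoA desaturase (75.1 ± 8.24 CPM per kb, SD, n = 3), and Acly, the ATP citrate lyase that supplies cytosolic acetyl-CoA (71.4 ± 5.99). Srebf2, encoding the SREBP that favors sterol genes, followed at 43.5 ± 1.15 CPM per kb. Fads1 and Fads2, the desaturases of polyunsaturated fatty acids, lay at 23.1 ± 2.98 and 18.5 ± 1.33, and Fasn, fatty acid synthase, at 21.3 ± 3.13. Scd2 and Acly did not differ beyond their spread, nor did Fasn, Ebp (19.6 ± 2.46), Srebf1 (19.1 ± 0.894) and Fads2 among themselves. Fads1 overlapped Fasn and Ebp, and its WT values all lay above those of Srebf1 and Fads2. Hmgcs1, Cyp51, Sqle, Nsdhl, Stard4, Insig1 and Pmvk lay between 10.2 and 12.5 CPM per kb. At the low end were Lss (2.01), Acaca (1.75), Tm7sf2 (1.72), Scd1 (0.635) and Fdps (0.540). Scd1, the main hepatic and adipose desaturase, thus lay far below its paralog Scd2 per length. Acly and Scd2 held the first and second rank in all 5 groups, and Scd1 and Fdps the last 2. Fdps shares 26.7% of its exonic bases with another gene on the same strand and Tm7sf2 12.1%, and Fdft1, Hmgcs1, Idi1 and Acss2 share 18.3%, 12.1%, 9.22% and 9.12% with a gene on the opposite strand. The counting strand is not given in the sources used here, so the levels of these genes are uncertain.

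**Figure D1:**
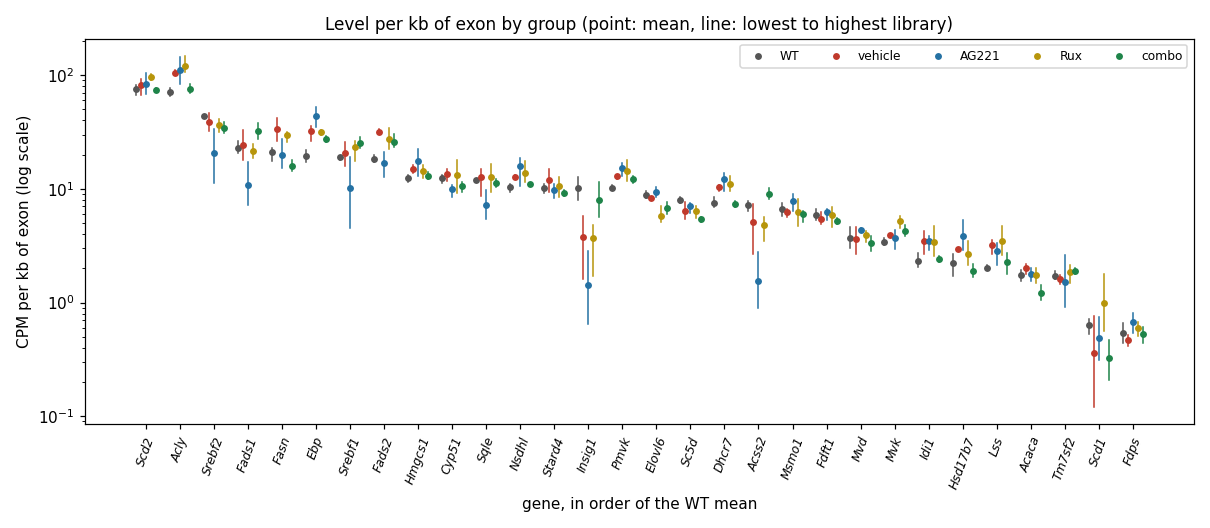
Levels of the 30 genes per kilobase of exon (CPM per kb, log axis) in each of the 5 groups (point, mean; line, lowest to highest of the 3 libraries), ordered by the WT mean. Scd2 (75.1 CPM per kb in WT) and Acly (71.4) lie at the top and Scd1 (0.635) and Fdps (0.540) at the bottom.

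Promoters were examined because SREBPs act together with NF-Y and Sp1 at short motifs close to the start site. RefSeq (GRCm38.p6) gave the 250 bases upstream of the start for 23 of the 30 genes. Fdps, Fdft1, Sqle, Stard4, Scd1, Scd2 and Fads1 had no entry. The letters CCAAT, which NF-Y reads, were present on either strand in 19 of the 23 promoters (82.6%), compared with 37.5% of the promoters of 27025 genes. The letters GGGCGG, an Sp1 box, were also present in 19 (82.6% vs. 35.4%). An E-box, CACGTG, was present in 4 (Hsd17b7, Sc5d, Dhcr7 and Insig1, 17.4% vs. 6.86%). A sterol regulatory element written as TCACNCCAC was present in Hmgcs1 alone (4.35% vs. 1.22% of all genes), where its letters were TCACCCCAC (0.555% of all genes). These are matches of letters and not binding sites. Promoters of 4 genes are printed 5′ to 3′ on the strand of the gene, with 3 runs of letters in capitals: CCAAT, its form on the other strand, which reads ATTGG, and the sterol element pattern, TCACNCCAC. Hmgcs1 is shown for the sterol element, Fasn and Ebp because they led the comparisons that follow, and Acly as a called gene with GGGCGG and without CCAAT. None of the printed bases lies in an annotated exon.
Hmgcs1, chr13:119690101-119690350, plus strand: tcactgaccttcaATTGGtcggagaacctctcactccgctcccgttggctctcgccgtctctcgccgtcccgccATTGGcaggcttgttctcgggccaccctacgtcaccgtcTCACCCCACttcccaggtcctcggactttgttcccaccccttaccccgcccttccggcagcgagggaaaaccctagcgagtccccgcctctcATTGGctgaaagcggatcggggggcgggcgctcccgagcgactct
Fasn, chr11:120824548-120824797, minus strand: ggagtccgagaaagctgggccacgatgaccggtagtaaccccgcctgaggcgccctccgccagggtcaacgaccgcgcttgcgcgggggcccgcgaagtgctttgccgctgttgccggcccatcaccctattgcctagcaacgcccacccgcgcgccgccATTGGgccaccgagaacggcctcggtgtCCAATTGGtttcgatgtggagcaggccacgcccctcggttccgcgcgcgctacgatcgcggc
Ebp, chrX:8193513-8193762, minus strand: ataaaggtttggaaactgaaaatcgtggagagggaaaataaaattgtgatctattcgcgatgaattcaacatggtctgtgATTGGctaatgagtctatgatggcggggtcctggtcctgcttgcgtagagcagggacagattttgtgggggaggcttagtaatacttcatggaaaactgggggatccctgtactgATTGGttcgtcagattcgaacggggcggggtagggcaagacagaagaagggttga
Acly, chr11:100528001-100528250, minus strand: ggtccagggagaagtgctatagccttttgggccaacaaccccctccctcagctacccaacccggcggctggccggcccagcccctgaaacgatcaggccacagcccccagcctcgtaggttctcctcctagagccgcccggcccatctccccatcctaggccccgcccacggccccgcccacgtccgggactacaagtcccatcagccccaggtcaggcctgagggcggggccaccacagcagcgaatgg
In Hmgcs1 the first base of the sterol element lay at -137 from the start, between CCAAT matches on the opposite strand at -176 and -45. Fasn held 3 CCAAT matches, at -90, -62 and -59, and the last 2 overlapped. Ebp held CCAAT at -170 and -55 and GGGCGG at -33, and Acly held GGGCGG at -117, -88, -76 and -27.

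The first comparison set mutant cells from mice that received vehicle and neither drug against WT cells. In vehicle-treated mutant LSK cells, 6 of the 30 genes were higher than in WT cells and none was lower. They came from the sterol arm (Lss, Ebp and Dhcr7), from fatty acid synthesis (Acly and Fasn) and from desaturation (Fads2), and the changes were 1.36- to 1.71-fold. Across all genes tested, 15.4% were called higher and 17.9% lower, so the share of these genes called higher (6 of 30) is near the background. The median log2 fold change was 0.13 over the 30 genes and -0.09 over all genes tested. None of the 6 mevalonate genes and none of the 4 regulators was called.

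Fads2, the desaturase that starts the conversion of essential fatty acids to longer polyunsaturated ones, showed the largest called increase. Fads2 was at 65.3, 56.5 and 60.7 CPM in WT libraries and at 100.1, 100.9 and 111 CPM in vehicle libraries. All vehicle libraries were above all WT libraries, with a log2 fold change of 0.78 (SE 0.19, adjusted p = 0.0118). Ebp, the sterol isomerase that shifts the ring double bond, was at 45.2, 39.6 and 50.9 CPM in WT and at 82.7, 60.4 and 81.9 CPM in vehicle libraries. Its log2 fold change was 0.73 (SE 0.17, adjusted p = 0.00936), again with no overlap. For all 30 genes donor sex cannot be told apart from genotype in any comparison with WT cells, and Ebp and Nsdhl lie on the X chromosome. Fasn was at 252, 193 and 253 CPM in WT and at 353, 287 and 457 CPM in vehicle libraries, and the 2 groups did not overlap (log2 fold change 0.65, SE 0.22, adjusted p = 0.0372). Acly was at 408, 345 and 378 CPM in WT and at 586, 533 and 531 CPM in vehicle libraries (0.55, SE 0.18, adjusted p = 0.0355). Lss, the cyclase that closes the sterol rings, rose from 21.2, 20.8 and 22.9 CPM to 29.0, 38.7 and 35.8 CPM (0.67, SE 0.24, adjusted p = 0.0469). Dhcr7, the last reductase of cholesterol synthesis, rose from 42.7, 40.7 and 49.1 CPM to 55.6, 62.8 and 61.9 CPM (0.44, SE 0.16, adjusted p = 0.0494). In all 6 genes every vehicle library was above every WT library.

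Insig1, which restrains SREBP activation, moved the other way without passing the test. It was at 31.4, 39.0 and 24.7 CPM in WT libraries and at 4.96, 17.8 and 12.5 CPM in vehicle libraries. The groups did not overlap, but the vehicle libraries differed by more than 3-fold among themselves (log2 fold change -1.43, SE 0.58, adjusted p = 0.0703). Idi1, the isomerase of the isoprenoid units, had a log2 fold change of 0.58 with an adjusted p of 0.0785. Srebf2 was at 304 to 321 CPM in WT and 229.8 to 332 CPM in vehicle libraries, and Srebf1 at 102 to 111 and 89.1 to 145 CPM, with overlapping groups in both. In all, 11 genes were higher and 1 was lower in every vehicle library than in every WT library (36.7% and 3.33%, against 25.6% and 31.3% of all genes tested). No gene was called without WT B30, and 2 to 5 were when another library was left out. With upper quartile normalization 3 genes were called higher and 1 lower, and the median over all genes was -0.18 on the log2 scale instead of -0.09.

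**Figure D2:**
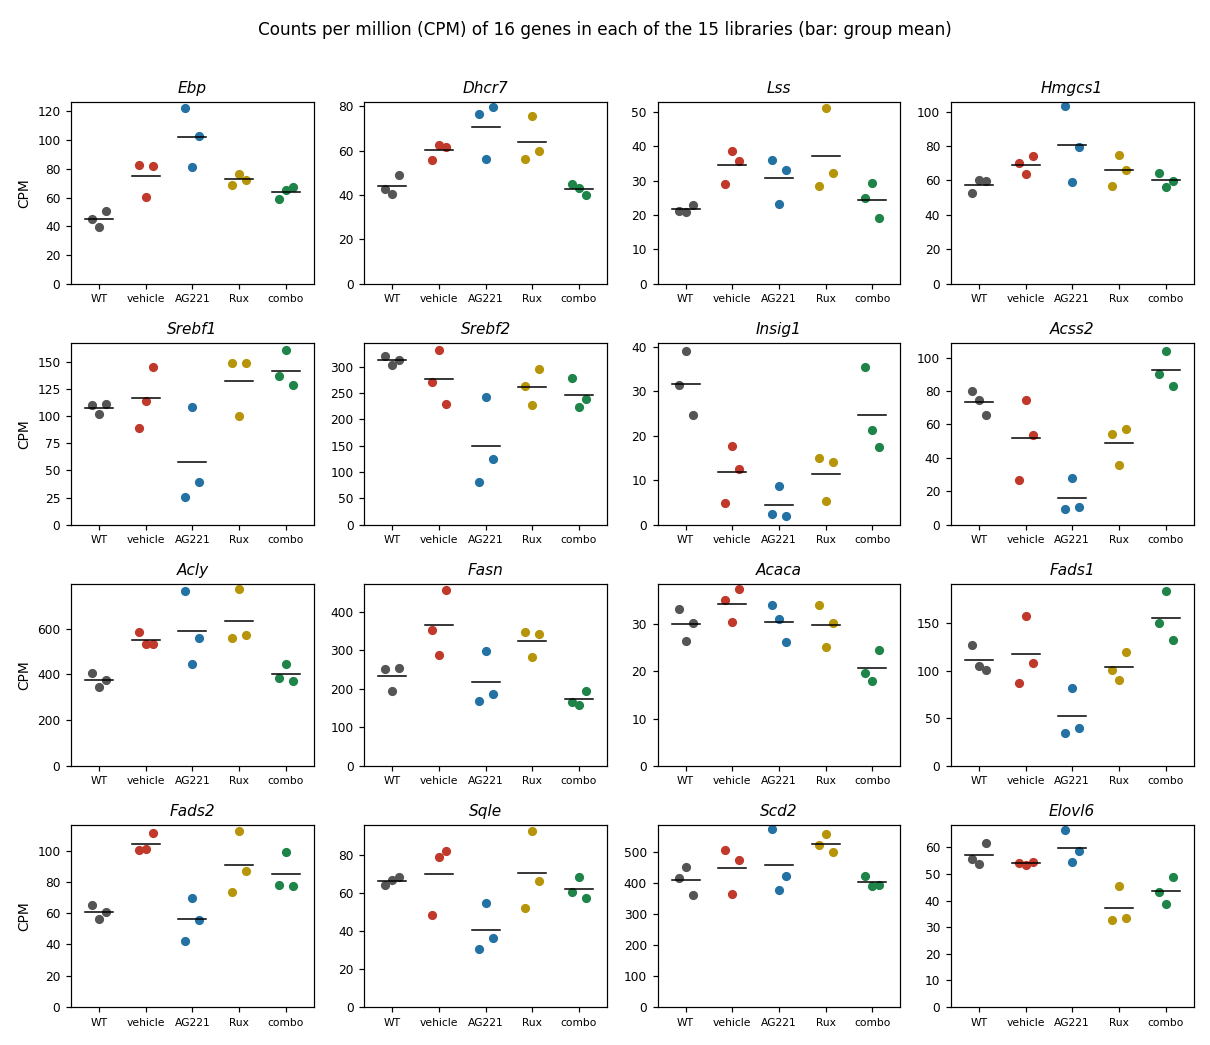
CPM in each of the 15 libraries for 16 of the genes, grouped as WT, vehicle, AG221, Rux and combo, with a horizontal line at each group mean. Fasn lies at 287 to 457 CPM in vehicle and at 157 to 195 CPM in combo libraries, and Insig1, Acss2, Srebf1 and Srebf2 are lowest in AG221 A8 and A10.

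The next comparison asked what the 2 drugs together change in mutant cells. Of the 4 genes of fatty acid synthesis, 2 were lower after combined treatment. Fasn fell 2.12-fold and Acaca, the acetyl-CoA carboxylase that makes malonyl-CoA, fell 1.66-fold relative to vehicle, and no member gene was called higher. Over all genes tested 4.21% were called lower and 8.28% higher, so a share of 2 in 30 genes (6.67%) is near the background. The median log2 fold change of the 30 genes was -0.19, compared with 0.04 over all genes.

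Fasn was at 353, 287 and 457 CPM in vehicle libraries and at 166, 157 and 195 CPM in combo libraries. Every combo library was below every vehicle library, and 2 of the 3 were below the lowest WT library (193 CPM). The log2 fold change was -1.08 (SE 0.22, adjusted p = 0.00697). This call held in all 13 alternative analyses, with a log2 fold change of -1.34 to -0.89. Acaca was at 35.0, 30.5 and 37.5 CPM in vehicle libraries and at 19.6, 17.9 and 24.4 CPM in combo libraries, with no overlap (log2 fold change -0.73, SE 0.18, adjusted p = 0.0164). The Acaca call was lost without vehicle A1 or A4 or without combo B24 or B25 (adjusted p up to 0.0829).

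None of the 11 sterol genes passed the test. Dhcr7 was at 55.6, 62.8 and 61.9 CPM in vehicle and at 45.1, 43.2 and 40.1 CPM in combo libraries, which did not overlap (log2 fold change -0.49, SE 0.16, adjusted p = 0.0672). Hsd17b7, a ketoreductase of the sterol demethylation step, was at 15.1 to 15.3 CPM in vehicle and at 8.59 to 11.2 CPM in combo libraries (-0.66, SE 0.26, adjusted p = 0.118). Idi1 of the mevalonate arm (-0.55, adjusted p = 0.171) and Acly of fatty acid synthesis (-0.46, adjusted p = 0.120) also had unadjusted p-values below 0.05. In total, 10 of the 30 genes were lower and 2 were higher in every combo library than in every vehicle library (33.3% and 6.67%, against 15.2% and 19.5% of all genes). The 2 higher genes were Tm7sf2 and Acss2. Insig1 was at 35.5, 21.2 and 17.4 CPM in combo libraries, one of which lay within the vehicle range of 4.96 to 17.8 CPM, and Acss2, the cytosolic acetyl-CoA synthetase, was at 90.3, 104 and 82.9 CPM, above all vehicle libraries (27.0, 74.4 and 53.7 CPM). Neither had an unadjusted p below 0.05. This comparison and the one with WT cells share the vehicle libraries.

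**Figure D3:**
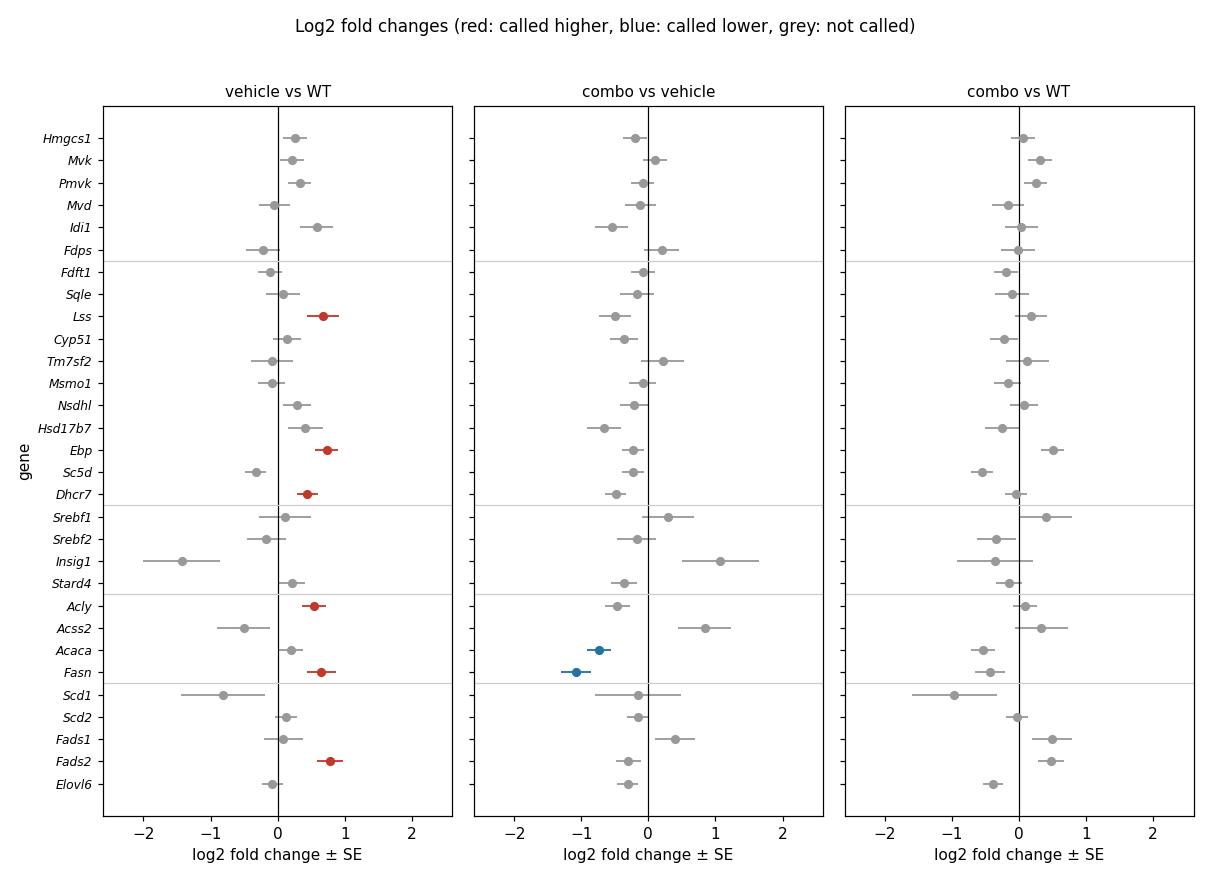
Log2 fold changes (points) with standard errors (lines) of the 30 genes for vehicle vs. WT, combo vs. vehicle and combo vs. WT, with called increases in red, called decreases in blue and the rest in grey. The 6 called increases in the first panel and the decreases of Fasn (-1.08) and Acaca (-0.73) in the second have no called counterpart in the third.

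Combined treatment was then compared with WT cells, a comparison within the letter B. None of the 30 genes was called (edgeR quasi-likelihood test), compared with 3.25% of all genes tested, and 5 had an unadjusted p below 0.05. DESeq2 called 1 member gene. Those 5 were Ebp (log2 fold change 0.50, SE 0.17, adjusted p = 0.0981), Fads2 (0.48, adjusted p = 0.145), Sc5d (-0.56, SE 0.16, adjusted p = 0.0678), Acaca (-0.54, adjusted p = 0.0937) and Elovl6 (-0.39, adjusted p = 0.143). Ebp was at 59.3, 65.3 and 67.6 CPM in combo libraries, above all WT libraries (39.6 to 50.9). Sc5d, the desaturase that precedes Dhcr7 in the pathway, was at 24.96 to 27.7 CPM in combo and 36.3 to 41.2 CPM in WT libraries. The groups did not overlap in 12 genes, 7 higher and 5 lower in combo (23.3% and 16.7%, against 22.3% and 19.3% of all genes). A missed threshold with 3 libraries per group does not show that the 2 groups express these genes alike. The median log2 fold change was -0.03 over the 30 genes and 0.04 over all genes.

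**Figure D4:**
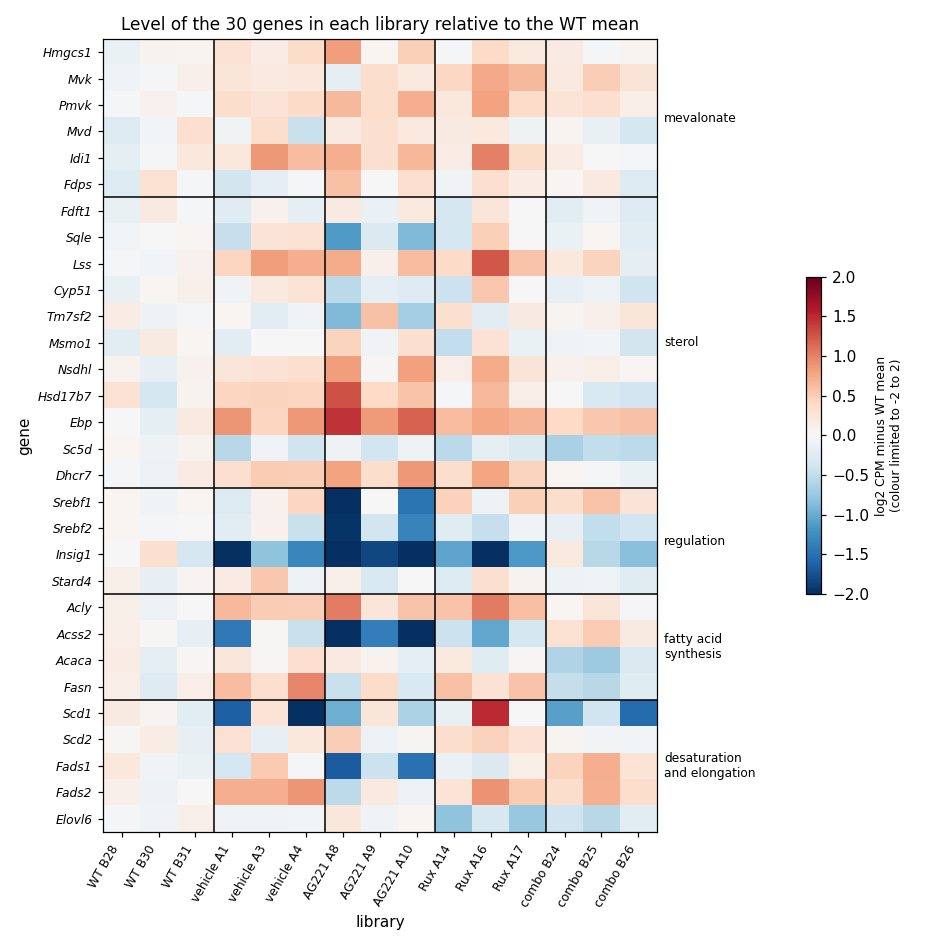
Log2 CPM of the 30 genes (rows, by role) in the 15 libraries (columns, by group) relative to the WT mean, on a color scale from -2 to 2. AG221 A8 and A10 share a pattern of low Srebf1, Srebf2, Insig1, Acss2, Fads1 and Fads2 that AG221 A9 shows less.

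AG221 alone was compared with vehicle to ask what inhibition of mutant IDH2 changes. Fads2 was the 1 gene of the 30 that was called, and it was lower (log2 fold change -0.90, SE 0.19, adjusted p = 0.0479), where 0.516% of all genes were called lower and 0.471% higher. Fads2 was at 42.4, 69.6 and 55.7 CPM in A8, A9 and A10 and at 100.1 to 111 CPM in vehicle libraries, with no overlap. Its call was lost in 5 of the 6 fits without 1 library and in the fit without A8 and A10. The median log2 fold change was 0.01 over the 30 genes and -0.01 over all genes, and 10 genes had an unadjusted p below 0.05, 9 of them lower. In all 9 of these genes A9 was above A8 and A10, and the spread was smallest for Cyp51, the lanosterol demethylase (37.8, 47.5 and 45.6 CPM in A8, A9 and A10).

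Acss2 was at 9.18 CPM in A8, 28.0 in A9 and 10.4 in A10, and at 27.0, 74.4 and 53.7 CPM in vehicle libraries, so that A9 lay just inside the vehicle range (log2 fold change -1.71, SE 0.41, adjusted p = 0.0583). Fads1, the desaturase that follows Fads2 in the pathway, was at 34.7, 82.4 and 39.4 CPM in A8, A9 and A10 and at 86.6 to 158 CPM in vehicle libraries (-1.18, SE 0.30, adjusted p = 0.0614). Srebf1 was at 25.5, 108 and 39.1 CPM against 89.1 to 145 CPM (-1.01, adjusted p = 0.138). Srebf2 was at 80.4, 242 and 124 CPM against 229.8 to 332 CPM (-0.90, adjusted p = 0.0990). In both SREBP genes A9 lay within the vehicle range, and A8 and A10 were far below it. Insig1 was at 2.43, 8.76 and 1.998 CPM against 4.96 to 17.8 CPM (-1.43, adjusted p = 0.158), and Fasn at 169, 299 and 187 CPM against 287 to 457 CPM (-0.74, adjusted p = 0.0817). Sqle, the squalene epoxidase, was at 30.4, 54.6 and 36.2 CPM against 48.3 to 82.4 CPM (-0.79, adjusted p = 0.0980). The remaining genes with an unadjusted p below 0.05 were Cyp51 (-0.47) and Ebp (0.45).

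A8 and A10 were below all 13 other libraries in 8 of the 30 genes (26.7%, against 16.7% of all genes tested). These 8 were Sqle, Tm7sf2, Srebf1, Srebf2, Insig1, Acss2, Fads1 and Fads2. The pair was above all 13 others in 5 genes (16.7%, against 12.4% of all genes), which were Hmgcs1, Msmo1, Nsdhl, Ebp and Dhcr7. The low genes had a transcript GC content of 47.8% to 58.4% and the high genes of 43.1% to 52.8%. These ranges overlapped. Among the most GC-rich members, Srebf1 and Srebf2 were low, and Mvd (59%), Fasn (57.9%), Pmvk (57%) and Mvk (56.3%) were in neither set. A8 and A10 also had the lowest values for long minus short genes (median log2 difference -0.44 and -0.42). Their mitochondrial share of counts was the highest (1.46% in each). The part of these traits was not tested further than by the GC-corrected fit and by leaving the libraries out. With GC offsets per library 2 genes were called in AG221 vs. vehicle, Acss2 and Fads1, and Fads2 was not. Without A8 and A10, when A9 alone stood for the group and was assumed to vary like the others, none was called. Without A9, 11 genes were called.

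**Figure D5:**
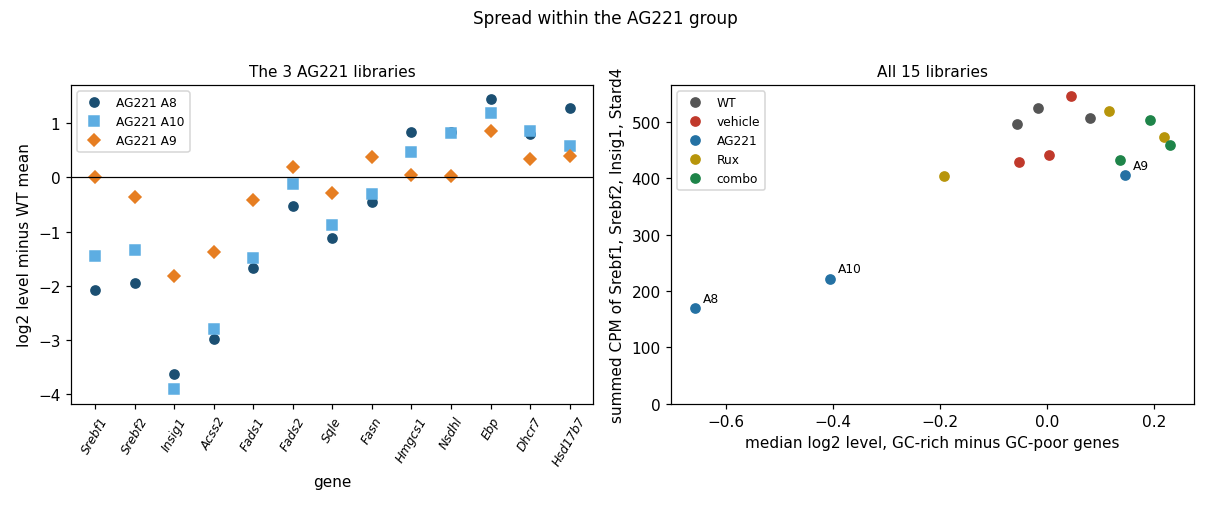
Left, log2 CPM relative to the WT mean of 13 genes in the AG221 libraries A8, A10 and A9, with A8 and A10 below A9 in the 8 genes on the left and above it in the 5 on the right. Right, summed CPM of the 4 regulators Srebf1, Srebf2, Insig1 and Stard4 against the GC trend of each of the 15 libraries, where A8 (-0.66) and A10 (-0.41) lie lowest on both axes.

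Ruxolitinib alone changed none of the 30 genes relative to vehicle by the edgeR test, where 3 of all genes tested (0.0168%) were called, and DESeq2 also called none of the 30. The unadjusted p was below 0.05 in 3 genes. Elovl6, which elongates saturated fatty acids, was at 32.7, 45.5 and 33.5 CPM in Rux libraries and at 53.4 to 54.6 CPM in vehicle libraries, without overlap (log2 fold change -0.54, SE 0.15, adjusted p = 0.707). Mvk, mevalonate kinase, was at 12.1 to 15.4 CPM in Rux and 10.5 to 10.8 CPM in vehicle libraries (0.40, SE 0.18). Scd1 was at 2.78, 8.79 and 3.09 CPM in Rux and at 0.939, 3.73 and 0.591 CPM in vehicle libraries, which overlapped (1.46, SE 0.63). Fasn stayed at 281 to 347 CPM in Rux libraries, within or just below the vehicle range. The median log2 fold change was 0.00 over the 30 genes and 0.01 over all genes.

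Combined treatment was also compared with each drug alone, which asks what the second drug adds. Relative to Rux, combo cells had lower Fasn (log2 fold change -0.91, SE 0.22, adjusted p = 0.0163), Acly (-0.67, SE 0.18, adjusted p = 0.0283) and Dhcr7 (-0.58, SE 0.16, adjusted p = 0.0330), and no gene was called higher. Over all genes 3.94% were called lower and 8.50% higher. Fasn was at 347, 281 and 342 CPM in Rux and at 166, 157 and 195 CPM in combo libraries, Acly at 559, 773 and 573 against 385, 445 and 370 CPM, and Dhcr7 at 56.1, 75.8 and 59.8 against 45.1, 43.2 and 40.1 CPM. All combo libraries were below all Rux libraries in these 3 genes. None of the 3 was called without combo B24. Combo and the single drugs differ in the A and B letters, so the letter cannot be told apart from the added drug.

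Relative to AG221, combo cells were higher in 5 genes and lower in 6, where 18.9% of all genes were called higher and 14.3% lower. The higher genes were regulators and genes of acetate use and desaturation, namely Acss2 (5.83-fold, log2 fold change 2.54, SE 0.42, adjusted p = 0.00243), Insig1 (5.65-fold, 2.497, SE 0.61, adjusted p = 0.00855), Fads1 (1.58), Srebf1 (1.30) and Fads2 (0.60). The lower genes were Hsd17b7 (-1.03, SE 0.26, adjusted p = 0.0102), Dhcr7 (-0.73, SE 0.16, adjusted p = 0.00607), Ebp (-0.67), Acly (-0.56), Acaca (-0.56) and Elovl6 (-0.46). Acss2 was at 90.3, 104 and 82.9 CPM in combo libraries and at 9.18, 28.0 and 10.4 CPM in AG221 libraries, with A9 nearer the combo values than A8 and A10 were. No gene was called without A8 and A10, when the log2 fold change of Acss2 was 1.71 (adjusted p = 0.171) and that of Insig1 was 1.48 (adjusted p = 0.372). The count was 5 without A8 alone and 18 without A9. The scaling also moved the all-gene median, from 0.11 to -0.18 on the log2 scale with upper quartile normalization, when 4 genes were called higher and 15 lower.

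The 2-by-2 interaction asked whether the effect of AG221 differs with and without ruxolitinib. Among its groups only combo carries the letter B, so the letter cannot be told apart from the interaction. Of the 30 genes, 3 were called, 2 positive and 1 negative, where 5.60% of all genes were positive and 2.82% negative. For Acss2 the log2 effect of AG221 was -1.71 without ruxolitinib and 0.91 with it, a difference of 2.62 (SE 0.57, adjusted p = 0.0330). For Fads1 the effects were -1.18 and 0.58, a difference of 1.76 (SE 0.42, adjusted p = 0.0363). For Dhcr7 they were 0.24 and -0.58, a difference of -0.82 (SE 0.23, adjusted p = 0.0474). None was called without vehicle A3 or without both A8 and A10, and 11 were called without A9.

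Each single-drug group was also set against WT cells, with the caution that these comparisons share the WT libraries with the first one. They also cross the letters A and B. In AG221 cells 7 genes were higher than in WT and 5 lower, where 22.2% of all genes were called higher and 28.5% lower. Ebp was higher in all AG221 libraries (122, 81.6 and 103 CPM, 2.26-fold, log2 fold change 1.18, SE 0.17, adjusted p = 0.000336), and this call held in all 14 alternative analyses, including the one without A8 and A10, with a log2 fold change of 0.87 to 1.42. The limit from donor sex given above also holds here for all genes, of which Ebp and Nsdhl are X-linked. The other higher genes were Hsd17b7 (0.78), Dhcr7 (0.68), Acly (0.65), Nsdhl (0.60), Pmvk (0.58) and Hmgcs1 (0.49). The lower genes were Insig1 (-2.86, SE 0.61, adjusted p = 0.00266), Acss2 (-2.21, SE 0.42, adjusted p = 0.00131), Fads1 (-1.09), Srebf2 (-1.07) and Sqle (-0.72). Without A8 and A10, Ebp was the 1 gene called. In Rux cells 7 genes were higher than in WT and 1 was lower, where 16.1% of all genes were called higher and 16.2% lower. The higher genes were Lss (0.78), Acly (0.75), Ebp (0.68), Mvk (0.62), Fads2 (0.58), Dhcr7 (0.53) and Pmvk (0.49), and the lower gene was Elovl6 (-0.62, SE 0.15, adjusted p = 0.0122). A16 was the highest Rux library in each of the 7 higher genes, with Lss at 28.3, 51.3 and 32.2 CPM in A14, A16 and A17. The erythroid genes summed to 4165 CPM in A16, against 1185 in A14 and 1170 in A17. Without WT B30, 1 gene was called in Rux vs. WT. Between the single drugs, Elovl6 was higher (0.69, SE 0.15, adjusted p = 0.0363) and Acss2 lower (-1.63, SE 0.41, adjusted p = 0.0470) in AG221 than in Rux cells, where 2.06% and 1.37% of all genes were called, and neither was called without A8 and A10.

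Ebp thus had its values in the order WT (39.6 to 50.9 CPM), combo (59.3 to 67.6), Rux (68.9 to 76.7), vehicle (60.4 to 82.7) and AG221 (81.6 to 122), ordered by group mean, and no neighbors in this order were called different. For Fasn the order was combo (157 to 195 CPM), AG221 (169 to 299), WT (193 to 253), Rux (281 to 347) and vehicle (287 to 457). Combo vs. WT and AG221 vs. WT were not called for Fasn, nor was Rux vs. vehicle. For Insig1 the order was AG221 (1.998 to 8.76 CPM), Rux (5.29 to 14.9), vehicle (4.96 to 17.8), combo (17.4 to 35.5) and WT (24.7 to 39.0). These places include A8 and A10. With A9 alone, AG221 would lie between WT (mean 233 CPM) and Rux (mean 324 CPM) for Fasn, at 299 CPM, and would keep its place for Ebp (81.6 CPM) and Insig1 (8.76 CPM).

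Across the 11 contrasts, 19 of the 30 genes were called at least once and 11 never were. The 11 were Mvd, Idi1 and Fdps of the mevalonate arm, Fdft1, Cyp51, Tm7sf2, Msmo1 and Sc5d of the sterol arm, Stard4, and the desaturases Scd1 and Scd2. Dhcr7 was called in 6 contrasts and Acly in 5, and Ebp, Acss2 and Fads2 in 4 each. These contrasts share libraries and are not independent of each other. In the mevalonate arm, Hmgcs1, the synthase that makes HMG-CoA, was at 52.7 to 103 CPM over the 15 libraries. Mvk and Pmvk, which phosphorylate mevalonate in turn, were at 7.90 to 15.4 and 16.9 to 30.7 CPM. Mvd, the decarboxylase that follows, was at 5.01 to 8.67 CPM, Idi1 at 7.14 to 16.5 and Fdps, the farnesyl diphosphate synthase, at 1.73 to 3.42 CPM. Fdft1, which makes squalene, varied least among the sterol genes never called, from 19.7 to 29.4 CPM. Msmo1, the sterol methyl oxidase, and Nsdhl, its partner dehydrogenase, were at 29.2 to 55.4 and 26.6 to 53.2 CPM, and Tm7sf2, a sterol reductase, was at 4.06 to 11.4 CPM with its lowest and highest values both in the AG221 group. Stard4, a carrier that moves cholesterol between membranes, was at 46.1 to 83.1 CPM. Scd2 was at 363 to 577 CPM, and Scd1 at 0.591 to 8.79 CPM, where the SD was as large as the mean in the vehicle group.

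Other genes of lipid metabolism were counted in 5 lists that hold no member gene. In vehicle vs. WT, fatty acid oxidation had 7 of 17 tested genes higher and none lower (15.4% of all genes were higher). Acaa2, the mitochondrial thiolase, rose by a log2 fold change of 0.95 (SE 0.18, adjusted p = 0.00392), Etfb, an electron transfer flavoprotein subunit, by 0.76 (SE 0.15, adjusted p = 0.00450), and Acads, the short-chain acyl-CoA dehydrogenase, by 0.68 (SE 0.16, adjusted p = 0.00865). These 3 calls held in all 13 alternative analyses. Further genes of fatty acid synthesis, elongation and activation had 8 of 20 higher and 3 lower. Among the higher were Elovl5 (0.41), Mlx (0.44) and Acsl5 (0.71). The lower were Me1, the cytosolic malic enzyme (-2.56, SE 0.69, adjusted p = 0.0152), Acsl3 (-1.27) and the mitochondrial transacylase Mcat (-1.23). Me1 was barely expressed, at 0.376, 0.701 and 0.158 CPM in vehicle libraries, where the floor was 0.0956 to 0.118 CPM. In WT libraries it was at 1.74 to 3.57 CPM. Of 13 genes of efflux and storage, the acyltransferases Soat1 (0.62) and Soat2 (1.19), which esterify cholesterol, and Lpcat3 (0.45) were higher, and Npc1, which exports cholesterol from lysosomes, was lower (-0.94). Among 9 genes of SREBP processing and sterol uptake, the SREBP protease Mbtps1 (0.45) and Erlin1 (0.58) were higher and none was lower. Of 11 further sterol genes, Fdxr (0.47) was higher and Coq2 (-1.21) lower. These counts depended on the settings and on single libraries. Upper quartile normalization and the filter of at least 10 counts in every library each moved them, except in SREBP processing and sterol uptake, where only the filter did. Without WT B30, fatty acid oxidation had 3 calls, SREBP processing and sterol uptake 1, and the other 3 lists none. Without vehicle A1 the calls were 4 of fatty acid oxidation, 2 of further fatty acid synthesis, 1 of efflux and storage and 0 of further sterol genes. The further fatty acid synthesis calls also fell from 11 to 7 without vehicle A3, 1 without vehicle A4 and 3 without WT B28, and those of efflux and storage from 4 to 0 without vehicle A4 and 2 without WT B28 or B31. Further sterol genes had 1 call without vehicle A4 or WT B28.

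In combo vs. vehicle, 5 genes of these lists were called and all were higher (8.28% of all genes were higher). They were Mcat (2.62, SE 0.44, adjusted p = 0.00324), Coq2, the prenyltransferase of ubiquinone synthesis (2.23, SE 0.34, adjusted p = 0.00229), Acsl3 (1.52), Rnf139 (0.91) and Nus1 (0.71). Coq2 and Mcat held in all 13 alternative analyses, and the other 3 calls were each lost without vehicle A1, combo B24 or combo B25. None of the genes of fatty acid oxidation or of efflux and storage was called in that comparison. In AG221 vs. vehicle and in Rux vs. vehicle no gene of the 5 lists was called by the edgeR test at the main settings, where 0.987% and 0.0168% of all genes were. At an unadjusted p below 0.05 there were 0 to 7 genes per list in AG221 vs. vehicle and 0 to 1 in Rux vs. vehicle. Upper quartile normalization and the filter of at least 10 counts each gave calls in AG221 vs. vehicle, in further fatty acid synthesis and in fatty acid oxidation. That filter also gave calls in efflux and storage. In AG221 vs. vehicle no gene was called without A8 and A10, whereas 1 to 7 per list were without A9, and DESeq2 called 0 to 2.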

How the data were processed

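RNA-seq libraries of sorted CD45.2+ LSK cells were prepared by the authors with SMARTer amplification and sequenced paired-end. Per the study's methods and the submitters' processing notes, the authors aligned reads to mm10 with STAR 2.5.1a at default parameters and deposited raw counts per Ensembl gene, counted by STAR, with replicates not pooled. The Ensembl release and the counting strand are not given in the sources used here. A second deposited table holds the same counts divided by 1 DESeq2 1.6.3 size factor per library and was not used.

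Of 45232 gene identifiers, 44585 were matched to a symbol with GENCODE M21 (GRCm38), and 37904 had at least 1 count. The other 647 identifiers had no symbol in that release. Counts were fitted in R 4.3.3 with edgeR 4.0.16: filterByExpr (17834 genes kept), TMM normalization, and 1 quasi-likelihood fit of 15 libraries in 5 groups without covariates. Genes were called at a Benjamini-Hochberg adjusted p under 0.05 over all genes tested, in 11 contrasts, and every adjusted p in the text comes from this fit unless another is named. The common biological coefficient of variation was 0.313. Levels are CPM on TMM library sizes, divided by the union of exons for CPM per kb, with a prior count of 2 for log2 CPM. A log2 fold change and its SE were printed for contrasts with an unadjusted p under 0.05. A level of 3 counts, the floor used here, was 0.0956 to 0.156 CPM, and it covers counting error only. The fit was also tested on simulated counts, for vehicle vs. WT only.

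The members and gene lists were chosen with earlier results of these data known. A gene of these lists is not reported here and was left out of their counts. All 30 members are named, and of each other list at most the 3 genes per direction with the smallest adjusted p. Alternatives were RLE and upper quartile normalization, DESeq2 1.42.0, other filters (at least 1 count in all, at least 10 in every library), separate fits restricted to the groups of each contrast, GC offsets (lowess span 0.3), TCACCCCAC as the sterol element, no TMM for group means, and leaving out each library. Leaving out AG221 A8 and A10 together was added after seeing the data. Promoters came from RefSeq (GRCm38.p6), and a gene with several starts counted once if any start held the motif.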

Additional observations from a re-analysis of the deposited data

Results flagged for a closer look

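In 3 genes the effect of AG221 differed with and without ruxolitinib by a test of the difference itself (edgeR quasi-likelihood test of the interaction, adjusted over all genes tested). For Acss2 the difference was 2.62 on the log2 scale (adjusted p = 0.0330), from -1.71 without ruxolitinib to 0.91 with it. For Fads1 it was 1.76 (adjusted p = 0.0363), from -1.18 to 0.58. For Dhcr7 it was -0.82 (adjusted p = 0.0474), from 0.24 to -0.58. The calls were lost in 8, 8 and 10 of the 12 fits that each left out 1 library, and none held without AG221 A8 and A10. Only combo carries the letter B among these groups, so the letter cannot be told apart from the interaction. Groups of 3 libraries were too small for the check for single outlying samples.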

How the results depend on the processing

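Of 48 called member fold changes, 2 held under every alternative (Fasn in combo vs. vehicle and Ebp in AG221 vs. WT), 37 lost their call in at least 1 fit without a library, and none changed direction. Of 56 with an unadjusted p under 0.05 that were not called, 12 kept that side everywhere and 3 changed direction, all without AG221 A8 and A10: Hmgcs1 (0.00899) and Nsdhl (0.0379) in combo vs. AG221 and Srebf1 in AG221 vs. WT (0.0287). Member counts moved by over 1.5 times as follows. Upper quartile normalization gave 3 in AG221 vs. vehicle, 19 in combo vs. AG221, 2 in combo vs. WT, 5 in Rux vs. WT and 6 in the interaction. DESeq2 gave 6 in AG221 vs. vehicle, 1 in combo vs. WT, 9 in AG221 vs. Rux and 5 in the interaction. No filter gave 3 in AG221 vs. vehicle and 1 in AG221 vs. Rux. At least 10 counts gave 2 in vehicle vs. WT, 3 in AG221 vs. vehicle, 4 in Rux vs. WT and 5 in the interaction. Fits of only the groups compared, with fewer samples, gave 0 in AG221 vs. vehicle, AG221 vs. Rux and the interaction, 4 in combo vs. vehicle, 6 in combo vs. AG221, 5 in combo vs. Rux and 2 in combo vs. WT. GC offsets gave 2 in AG221 vs. vehicle. Leaving out A8 and A10 gave 1 in AG221 vs. WT and 0 in AG221 vs. vehicle, combo vs. AG221, AG221 vs. Rux and the interaction. The causes were not tested. Without 1 library the counts were 0 to 5 (vehicle vs. WT), 0 to 11 (AG221 vs. vehicle), 0 to 0 (Rux vs. vehicle and combo vs. WT), 1 to 2 (combo vs. vehicle), 5 to 18 (combo vs. AG221), 0 to 2 (combo vs. Rux), 7 to 16 (AG221 vs. WT), 1 to 8 (Rux vs. WT), 0 to 13 (AG221 vs. Rux) and 0 to 11 (interaction). Over all genes, vehicle vs. WT had 2747 higher and 3190 lower, 1306 and 3586 with upper quartile normalization, and 4169 and 2777 with GC offsets. Without TMM, 27 of 150 group means of members moved by over 1 SD. No paired analysis was possible because the groups share no replicate numbers.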
